A study of Rattus norvegicus with 48 samples.

Results

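The miR-130 and miR-301 family was followed in rat plasma during the healing of a calvaria defect, a hole drilled in the skull roof. The family was taken as 5 rows of the deposited count table, rno-miR-130a-3p, rno-miR-130b-3p, rno-miR-130b-5p, rno-miR-301a-3p and rno-miR-301b-3p (the prefix names the rat and is left out below), out of 645 mature miRNAs listed. These members were chosen from results of the same data, including their changes over time, so their own values are a description. Where calls of the fit over all miRNAs are counted among the members, they stand beside the share over all miRNAs, and nothing is read from them in any comparison. Each of 12 rats was bled before the operation, called baseline, and again after 1, 4 and 8 weeks, which gave 48 plasma samples. The methods give the age of the rats as 12 weeks. The rats were the 6 strong ("good") and the 6 weak ("bad") regenerators, picked by bone volume at the end of the study, so every group and time point held 6 rats.

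All rats were males, named as Sprague-Dawley in the methods although Wistar is named elsewhere in the study, and all had the same skull defect. They came from 4 treatment arms, an empty defect, a collagen-hydroxyapatite (CHA) scaffold, a CHA scaffold with a plasmid for BMP2 and miR-590-5p, and a CHA scaffold with vesicles of mesenchymal stromal cells. The study reports an uneven split of the arms over the groups. Rats with the CHA scaffold alone were among the strong regenerators only, and the plasmid scaffold was more frequent among the weak ones. The sample labels do not give the treatment of each rat, so treatment and regeneration group cannot be told apart here. Each rat is its own before-surgery control, and there were no rats without a defect. Changes with healing and changes with the age of the rats therefore cannot be told apart. Baseline samples carry the regeneration label unknown and took the group of the same animal's later samples.

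MicroRNAs are short RNAs cut from hairpin precursors that guide the silencing of messenger RNAs. The bases near the 5′ end, the seed, largely set which messenger RNAs are bound, and miRNAs with one seed form a family. Each hairpin can give a 5p and a 3p arm, and usually 1 of them is kept. The miR-130 and miR-301 miRNAs are known for roles in blood vessel growth, in hypoxia and in the bone morphogenetic protein and TGF-β pathways, and miR-130a is expressed in endothelial cells. In plasma, miRNAs come from blood cells, endothelium and other organs, and fewer cells of a type and less RNA per cell cannot be told apart.

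The mature sequences, which show what makes these miRNAs a family and how near they are to each other, were found in RefSeq (build GRCr8) for 4 of the 5 members. Capitals mark the seed, bases 2 to 8 counted from the 5′ end.
miR-130a-3p: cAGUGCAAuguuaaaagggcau
miR-130b-3p: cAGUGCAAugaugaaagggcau
miR-301b-3p: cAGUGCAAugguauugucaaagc
miR-130b-5p: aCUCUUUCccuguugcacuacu

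The 3 printed 3p members had the seed AGUGCAA, which no other of the 693 RefSeq mature rat sequences held. miR-301a-3p had no entry among these 693, so its sequence and seed could not be compared here. miR-130a-3p and miR-130b-3p differed at 2 of 22 bases, U11A and A13G. miR-301b-3p differed from miR-130a-3p at 9 of the first 22 bases, all of them past the seed. miR-130b-5p comes from the other side of the miR-130b hairpin and shares its seed with no other listed sequence. The counts do not show how reads with a mismatch were split between miR-130a-3p and miR-130b-3p.

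The members lie at 3 places in the rat genome (RefSeq, GRCr8). The hairpin Mir130a lies at chr3:90229228-90229315 on the minus strand and overlaps Mir3590, which is annotated on the other strand. Mir301a lies at chr10:72422599-72422698 on the plus strand. Mir301b (chr11:97384033-97384110) and Mir130b (chr11:97384380-97384461) lie 269 bases apart on the plus strand and form a cluster.

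A second set of sequences is shown because it holds nearly the same letters as the family, moved by 1 base, in miRNAs that are far more abundant or moved differently.
miR-19a-3p: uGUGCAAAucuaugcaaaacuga
miR-19b-3p: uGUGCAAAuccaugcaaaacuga
miR-148a-3p: uCAGUGCAcuacagaacuuug
miR-148b-3p: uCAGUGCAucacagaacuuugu
miR-152-3p: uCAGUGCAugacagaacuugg

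The 6 letters GUGCAA were found within bases 1 to 9 of 5 of 693 mature sequences (0.722%), which were miR-19a-3p, miR-19b-3p and the 3 printed 3p members. The 6 letters AGUGCA were found there in 7 sequences (1.01%), among them the 3p members, miR-148a-3p, miR-148b-3p and miR-152-3p.

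Levels are given as RPM, the reads of a miRNA per 1000000 miRNA reads of its library. The miRNA total per library ranged from 393259 to 1586398 reads, with a median of 796311. The week 8 libraries stood apart in UniSp2, a synthetic RNA added in a fixed amount at extraction. All 12 held 91.1 to 143.9 UniSp2 reads per 1000 miRNA reads, against 23.3 to 60.4 in the 36 other libraries, so levels relative to the miRNA total and levels relative to the spike-in differ at week 8. Both scales are given below for the members' changes to week 8.

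miR-301a-3p was the most abundant member over the 48 samples, with a mean of 1203 ± 471 RPM (SD, n = 48 samples of 12 rats). miR-130a-3p followed with 686 ± 214 RPM and miR-130b-3p with 499 ± 104 RPM. The 2 low members were miR-301b-3p with 23.04 ± 12.9 RPM and miR-130b-5p with 13.8 ± 8.00 RPM. The ranges of the 3 high members overlapped, and so did those of the 2 low members. The lowest sample of miR-130b-3p (317.1 RPM) lay above the highest sample of miR-301b-3p (63.5 RPM). Adapter ligation can favour some sequences, so the order is one of read numbers. Behind these levels were 45428 reads of miR-301a-3p, 28355 of miR-130a-3p and 20015 of miR-130b-3p in all samples. Only 868 reads of miR-301b-3p and 640 of miR-130b-5p were counted, with a median of 17 and 11 reads per library, so counting error is large for these 2.

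**Figure D1:**
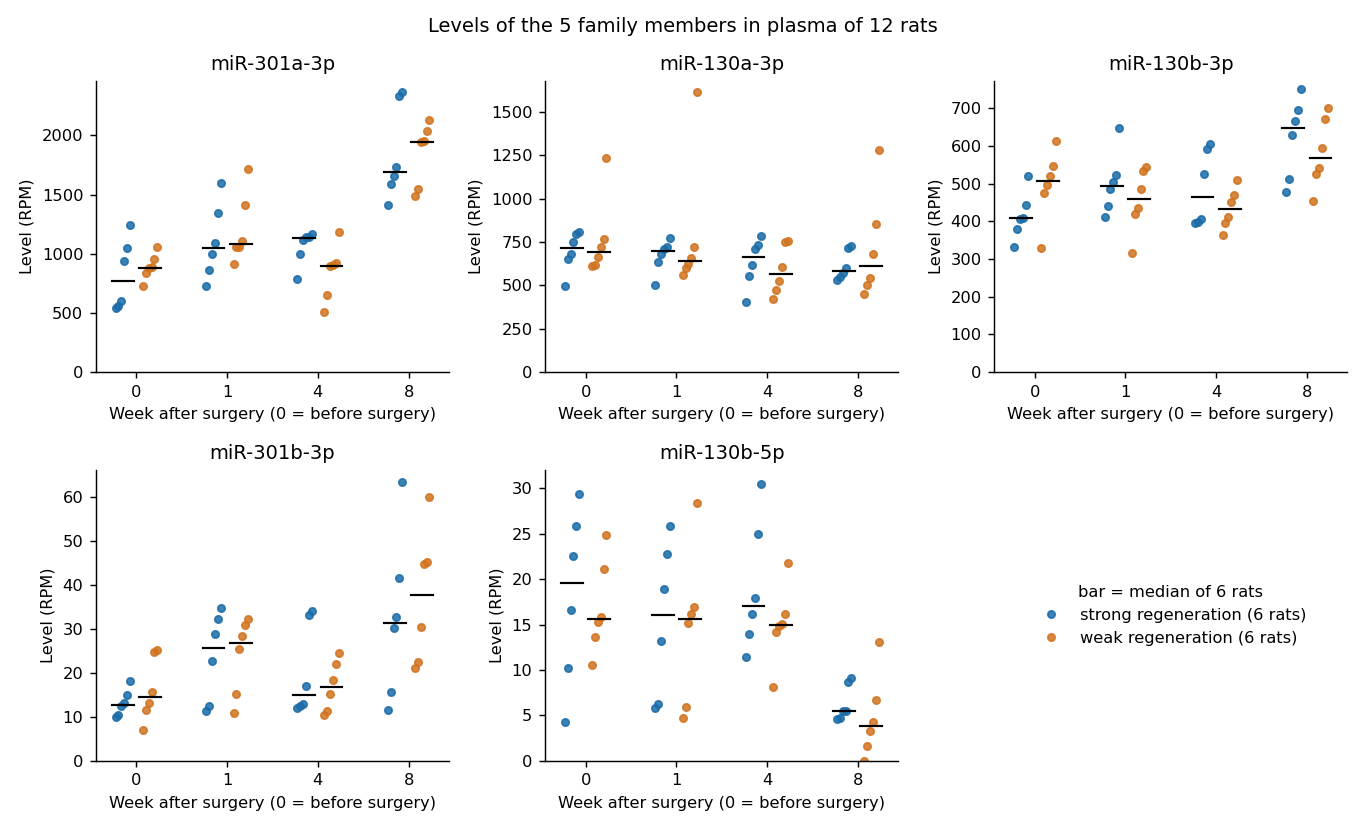
Level (RPM) of each member in all 48 samples by week after surgery, with strong regenerators in blue, weak regenerators in orange and the median of 6 rats as a bar. In RPM, miR-301a-3p at week 8 lay between 1409.6 and 2366 RPM, above all baseline samples, while miR-130b-5p at week 8 had a median of 5.07 RPM against 16.2 RPM at baseline; relative to UniSp2, the fitted level of every member was lower at week 8.

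The first question was how the members changed from baseline, irrespective of regeneration. In RPM, the 3p members miR-301a-3p, miR-301b-3p and miR-130b-3p were higher at week 8, miR-130b-5p was lower and miR-130a-3p differed little, whereas relative to UniSp2 all 5 were lower. At weeks 1 and 4, UniSp2 scaling moved the median of the 310 miRNAs with a mean of at least 10 RPM to -0.32 and -0.29, from -0.04 and 0.07, and turned miR-130a-3p and miR-130b-3p below baseline at week 1 and miR-130b-3p, miR-130b-5p and miR-301a-3p below it at week 4. In the edgeR quasi-likelihood fit over all miRNAs, scaled by TMM (trimmed mean of M-values, which sets the bulk of miRNAs equal between samples), 4 of the 5 members passed a Benjamini-Hochberg false discovery rate (FDR) under 0.05 at week 8, 3 higher and 1 lower. Of all 620 miRNAs tested at week 8, 40.3% passed, 14.2% higher and 26.1% lower. These 620 reached down to a mean of 0.036 RPM, far under any member. The 40.3%, also where it is quoted below, is therefore not a share among miRNAs of like abundance, which was not computed. The members' changes at all 3 weeks were known when they were chosen, so these counts are no test of the members. At week 4, none of the 5 members passed, against 4.19% of 645 miRNAs, and 0 members had an unadjusted p under 0.05 in edgeR or passed in DESeq2. At week 1, 1 of the 3 members tested passed, miR-301a-3p, against 21.6% of 232 miRNAs in either direction and 12.5% higher; with library size in place of TMM the split over all miRNAs at week 1 went from 29 higher and 21 lower to 7 higher and 25 lower. miR-301b-3p and miR-130b-5p lay under the abundance filter of week 1, where the least abundant miRNA tested had a mean of 37.5 RPM. The 3 comparisons share the baseline samples.

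miR-301a-3p, the most abundant member, ranged from 540.8 to 1240.8 RPM at baseline (median 882.9, n = 12 rats). After 1 week it ranged from 725.2 to 1712.2 RPM (median 1076.4), and after 4 weeks from 507.2 to 1180.8 RPM (median 957.6). At week 8 it ranged from 1409.6 to 2366 RPM (median 1836.5). In RPM, all 12 samples of week 8 lay above all 12 of baseline, and 7 of them lay above the highest sample of week 1. Per 1000 UniSp2 reads the time points overlapped, with 13.3 to 42.9 at baseline, 9.57 to 45.6 at week 4 and 10.2 to 19.8 at week 8. Among the 310 miRNAs with a mean of at least 10 RPM, 13 (4.19%) had all samples of week 8 above all of baseline in RPM. The level of miR-301a-3p was higher than baseline in 12 of 12 rats after 1 week, in 8 after 4 weeks and in 12 after 8 weeks in RPM, and in 7, 7 and 1 of 12 rats relative to UniSp2.

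The fitted log2 fold change of miR-301a-3p against baseline was 0.56 (SE 0.15), 0.26 (SE 0.15) and 1.19 (SE 0.15) for weeks 1, 4 and 8. At week 1, UniSp2 scaling took the value to 0.25 and ended the call, as did leaving out weak rat 7, and in either case no member passed. Per 1000 UniSp2 reads, miR-301a-3p had a median of 25.01 reads at baseline, 27.0 after 1 week, 23.3 after 4 weeks and 14.7 after 8 weeks, and the fitted log2 fold change at week 8 was -0.76. The same scaling moved the median of the 310 miRNAs to a log2 fold change of -2.01 at week 8, from -0.12 with TMM. miR-301a-3p lay above that median on both scales.

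**Figure D2:**
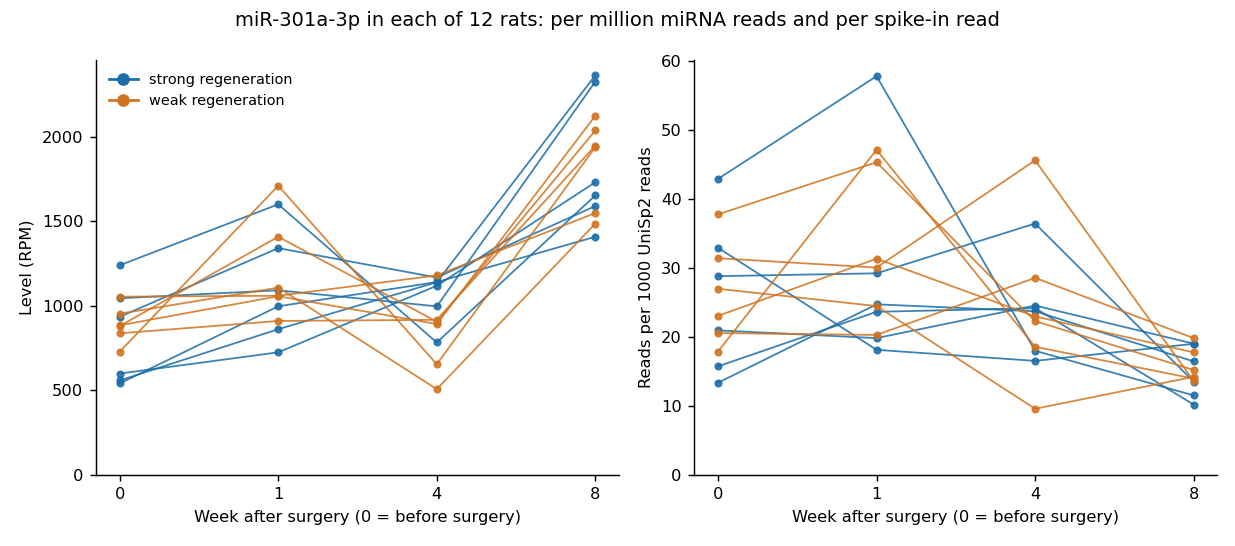
miR-301a-3p in each of the 12 rats by week, as RPM on the left and as reads per 1000 UniSp2 reads on the right, 1 line per rat, strong regenerators in blue and weak in orange. All 12 lines end above their start on the left, with fitted log2 fold changes of 1.19 and, on the right scale, of -0.76.

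miR-301b-3p, a member of the miR-301b and miR-130b cluster, ranged from 6.91 to 25.3 RPM at baseline (median 13.2), from 10.8 to 34.9 RPM at week 1 (median 26.9) and from 10.4 to 34.1 RPM at week 4 (median 16.1). At week 8 it ranged from 11.6 to 63.5 RPM (median 31.6), and 8 of 12 samples lay above the highest baseline sample. The groups overlapped at every week. Its level was above baseline in 10, 5 and 9 of 12 rats at weeks 1, 4 and 8 in RPM, and in 9, 5 and 4 relative to UniSp2. Fitted log2 fold changes against baseline were 0.71 (SE 0.25), 0.37 (SE 0.25) and 1.25 (SE 0.25), and that of week 8 was -0.60 relative to UniSp2. DESeq2 and the fit without the week 8 libraries also called it at week 1, so that 2 members passed there.

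Compared with miR-301b-3p, miR-130b-3p from the same cluster changed less on the TMM scale and more relative to UniSp2 at week 8. It ranged from 329.9 to 614.5 RPM at baseline (median 459.5), from 317.1 to 647.1 RPM at week 1 (median 485.4) and from 364.9 to 604.2 RPM at week 4 (median 431.7). At week 8 it ranged from 453.0 to 750.6 RPM (median 611.7), overlapping baseline, with 6 of 12 samples above the highest baseline sample. In RPM it was higher in 12 of 12 rats from week 4 to week 8, and in 10 of 12 from baseline to week 8. Relative to UniSp2 it was higher than baseline at week 8 in 0 of 12 rats. Per 1000 UniSp2 reads it ranged from 7.76 to 15.2 at week 4 and from 3.71 to 6.90 at week 8. The fitted log2 fold changes were 0.16 (SE 0.11), 0.11 (SE 0.11) and 0.46 (SE 0.11), and that of week 8 was -1.42 relative to UniSp2.

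miR-130a-3p, whose hairpin lies on another chromosome, had the smallest fitted change of the members at week 8 on the TMM scale, and a change of -1.96 relative to UniSp2. Its median was 701.1 RPM at baseline (494.8 to 1232.4), 667.0 RPM at week 1 (500.8 to 1618.2), 612.0 RPM at week 4 (402.1 to 787.3) and 585.6 RPM at week 8 (448.5 to 1281.4). At week 8 it was higher than baseline in 4 rats and lower in 8 in RPM, and lower in 12 of 12 rats relative to UniSp2. The fitted log2 fold changes were 0.14 (SE 0.16), -0.16 (SE 0.16) and -0.05 (SE 0.16). Its direction at week 8 turned to 0.08 with RLE size factors, and without weak rat 3 the value at week 1 turned to -0.08. At week 8 the sign turned in 7 of the 12 fits with 1 rat left out (-0.18 to 0.13).

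miR-130b-5p, the other arm of the miR-130b hairpin, ranged from 4.32 to 29.4 RPM at baseline (median 16.2), from 4.74 to 28.4 RPM at week 1 (median 15.6) and from 8.17 to 30.5 RPM at week 4 (median 15.7). At week 8 it ranged from 0 to 13.1 RPM (median 5.07), overlapping baseline, and 9 of 12 samples lay below the lowest sample of week 4. Against baseline, its week 8 level was lower in 10 of 12 rats in RPM and in 12 of 12 relative to UniSp2. Fitted log2 fold changes against baseline were -0.12 (SE 0.27), 0.06 (SE 0.27) and -1.57 (SE 0.31), with -3.38 at week 8 relative to UniSp2. In the 1 library at 0, weak rat 7 at week 8, 3 reads would have been 7.63 RPM, so the value allows a level up to that. Such limits and the intervals below cover counting error only, since reads are not independent molecules.

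**Figure D3:**
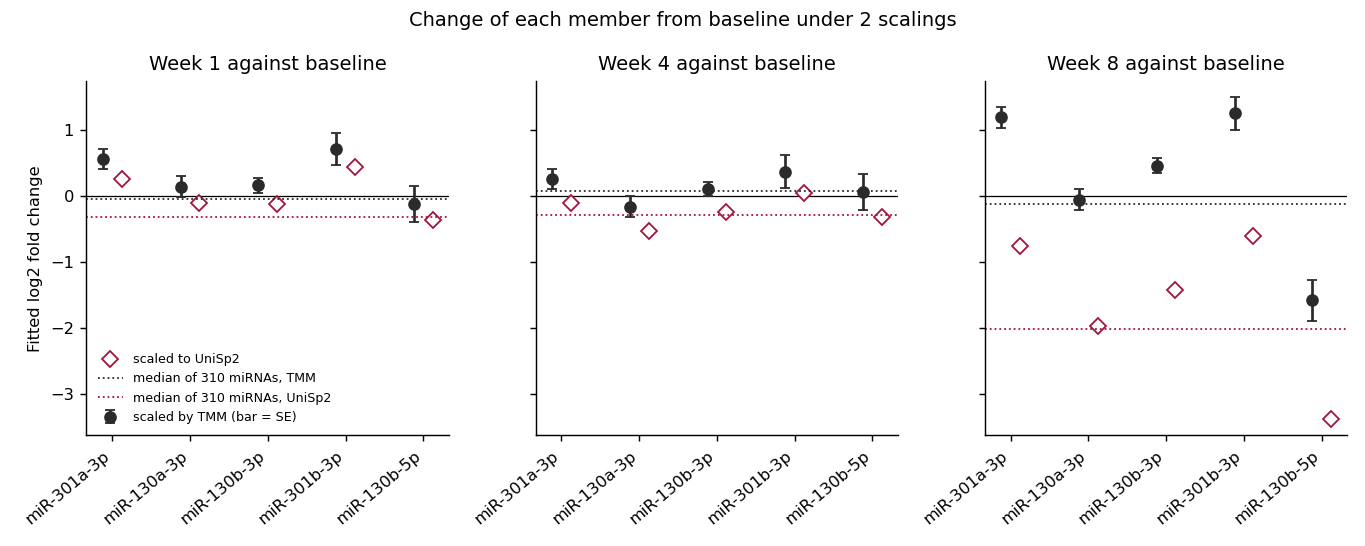
Fitted log2 fold change of each member against baseline at weeks 1, 4 and 8, scaled by TMM (filled points, bars are SE) and to UniSp2 reads (open diamonds), with dotted lines at the median of 310 miRNAs. At week 8, miR-301a-3p, miR-301b-3p and miR-130b-3p lie above 0 with TMM and below 0 with UniSp2, and miR-130b-5p is the lowest member on both scales.

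The arms of the miR-130b hairpin can be compared within a library, where no scaling enters. The 12 libraries of each time point were summed. At baseline, 5305 reads of the 3p arm and 212 of the 5p arm gave 25.02 3p reads per 5p read. For weeks 1 and 4 the ratio was 27.9 and 25.4, and for week 8 it was 101.2, from 4554 reads of the 3p arm and 45 of the 5p arm. The 5p arm made up 3.84% of the arms' reads in the baseline libraries (exact 95% binomial interval 3.35 to 4.38%), 3.47% after 1 week (2.98 to 4.00%), 3.79% after 4 weeks (3.301 to 4.34%) and 0.978% after 8 weeks (0.715 to 1.31%).

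Per library, the ratio ranged from 15.8 to 76.7 at baseline (median 26.3), from 14.7 to 111.3 at week 1 (median 29.5) and from 16 to 48.3 at week 4 (median 27.2). At week 8, 11 libraries ranged from 45.3 to 334 (median 115.4). Weak rat 7 had no 5p read beside 207 3p reads, a ratio of at least 69 when 3 reads are taken as the floor. On log2(RPM + 1), which also takes in weak rat 7, the 3p to 5p difference was larger at week 8 than at week 4 in 11 of 12 rats and larger than at baseline in 10. Strong and weak regenerators overlapped at each time point.

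**Figure D4:**
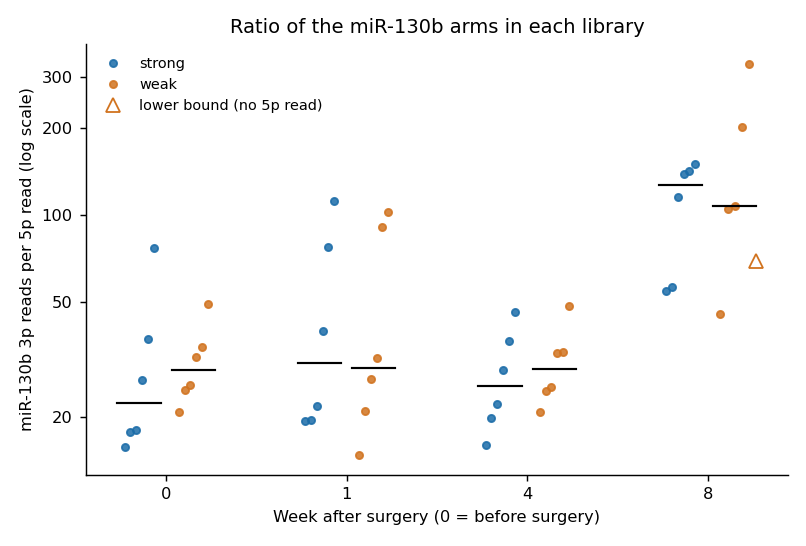
Reads of miR-130b-3p per read of miR-130b-5p in each library (log scale) by week, with strong regenerators in blue, weak in orange and bars at the median of the rats with a 5p read. The open triangle is the lower bound of 69 for weak rat 7, which had no 5p read, and the week 8 libraries lie mostly above the rest.

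Other hairpins also shifted between arms at week 8. Both arms reached a mean of 10 RPM for 76 hairpins. The fitted log2 change of the 3p arm minus that of the 5p arm was 2.04 for miR-130b at week 8, and 6 of the 76 hairpins had a larger difference in size, with a range from -2.67 to 3.08. In 34 of the 76 the arms differed by more than 1 at week 8. At weeks 1 and 4 none did, and miR-130b was at 0.28 and 0.04.

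The other arms of the family's hairpins were close to the floor. Over all 48 libraries, 5 reads of miR-130a-5p, 42 of miR-301a-5p and 4 of miR-301b-5p were counted. miR-301a-5p had 5 reads at baseline in 4 libraries, 11 at week 1 in 5 libraries, 25 at week 4 in 9 libraries and 1 at week 8. It was the 1 partner arm that passed at week 4, with a fitted log2 fold change of 2.15 (SE 0.60, FDR 0.0198, edgeR quasi-likelihood test with Benjamini-Hochberg adjustment), where 4.19% of all miRNAs passed. The call was lost with library size in place of TMM, with filterByExpr, in DESeq2 and without any 1 of rats 2, 5, 6, 7 and 29, and it rests on few reads. At week 8, 0 of the 3 passed in the edgeR quasi-likelihood test, with FDR values of 0.26, 0.34 and 0.26. With UniSp2 scaling all 3 were called lower, as were 498 of the 645 miRNAs listed, so nothing particular to these arms is read from it. Both miR-130a-5p and miR-301b-5p had 2 reads at baseline and 0 at week 8. None of the 3 partner arms was abundant enough to be tested at week 1. At week 8, miR-301a gave 13793 reads of its 3p arm and 1 of its 5p arm.

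The balance within the family shifted towards miR-301a-3p. The 4 3p members together held 2059 ± 363 RPM at baseline and 2392 ± 401, 2042 ± 370 and 3152 ± 386 RPM after 1, 4 and 8 weeks (SD, n = 12). miR-301a-3p made up 41.2 ± 5.82% of the sum of the 4 at baseline and 48.1 ± 7.42%, 46.3 ± 5.38% and 58.5 ± 5.98% after 1, 4 and 8 weeks (SD, n = 12). This share does not depend on how libraries are scaled. The week 8 libraries are also those that stand apart in UniSp2 and in the arms of many hairpins. Whether a difference between libraries that depends on sequence has a part in the share was not tested. The ratio of miR-301a-3p to miR-130a-3p had a median of 1.204 at baseline and 3.00 at week 8, and it was higher at week 8 in 11 of 12 rats. The exception was weak rat 26, whose ratio of 1.16 at week 8 was the lowest of that week. The ratio of miR-301a-3p to miR-130b-3p had a median of 1.78 at baseline and 3.16 at week 8 and was higher in 11 of 12 rats, with strong rat 5 as the exception.

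The second question was whether the members differed between strong and weak regenerators. No member passed an FDR under 0.05 over all time points or at any single one, and the levels of every member overlapped between the groups at each time point. Over all time points 0% of 645 miRNAs passed in the edgeR quasi-likelihood test and 64 had an unadjusted p under 0.05, of which none was a member. The study names miRNAs, none of them a member, that differed between the groups over all time points at this FDR. The fit used here did not call them. At baseline, week 1 and week 4 the share was again 0%, with 42, 32 and 25 miRNAs at an unadjusted p under 0.05, and at week 8 it was 0.155% (1 miRNA), with 35 at an unadjusted p under 0.05. DESeq2 called 0 miRNAs in each of these comparisons. Strong and weak regenerators did not overlap for 0.323% of the 310 miRNAs with a mean of at least 10 RPM at baseline and for 0% at weeks 1, 4 and 8.

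In strong against weak regenerators over all time points, the fitted log2 fold change was -0.18 (SE 0.11) for miR-130a-3p and -0.03 (SE 0.08) for miR-130b-3p. It was -0.03 (SE 0.11) for miR-301a-3p, -0.12 (SE 0.17) for miR-301b-3p and 0.16 (SE 0.20) for miR-130b-5p. The 4 samples of a rat entered this fit as independent, so these errors may be too small. The sign for miR-130b-3p and miR-301a-3p turned without any 1 of 3 rats, reaching 0.04 for each without rat 29. 

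At baseline, before surgery, miR-301a-3p ranged from 540.8 to 1240.8 RPM in strong regenerators (median 767.7, n = 6 rats) and from 728.7 to 1054.8 RPM in weak ones (median 882.9). miR-130b-3p ranged from 330.8 to 521.1 RPM in strong (median 407.7) and from 329.9 to 614.5 RPM in weak regenerators (median 507.5). The fitted log2 fold change of miR-130b-3p at baseline, -0.27 (SE 0.16), was the largest in relation to its error among the members at that time. The groups overlapped for all members.

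At week 1, weak rat 3 had 1618.2 RPM of miR-130a-3p, while the other weak regenerators ranged up to 722.4 RPM and strong ones from 500.8 to 773.0 RPM. Fitted between strong and weak regenerators, its log2 fold change of -0.35 (SE 0.22) went to 0.04 without weak rat 3. Weak rat 25 stood out at baseline with 1232.4 RPM and weak rat 26 at week 8 with 1281.4 RPM. The SD of miR-130a-3p over 24 samples was 283 RPM in weak and 109 RPM in strong regenerators, and this spread was not tested.

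At week 4, miR-301a-3p ranged from 783.5 to 1168.4 RPM in strong regenerators (median 1129.8) and from 507.2 to 1180.8 RPM in weak ones (median 899.8), with overlap and a fitted log2 fold change of 0.32 (SE 0.22), which was -0.04 with UniSp2 scaling. At week 8, the last time point, it ranged from 1409.6 to 2366 RPM in strong (median 1693.7) and from 1487.4 to 2126.1 RPM in weak regenerators (median 1944.8), and the fitted value was -0.15 (SE 0.22). miR-130b-5p at week 8 ranged from 4.62 to 9.09 RPM in strong and from 0 to 13.1 RPM in weak regenerators.

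The third question was whether the change from baseline differed between strong and weak regenerators. No member passed at week 1, 4 or 8, nor did any of the 645 miRNAs (0% each) in the edgeR quasi-likelihood test, with 27, 38 and 26 at an unadjusted p under 0.05 and none of them a member. DESeq2 called 0 miRNAs, with 1 member at an unadjusted p under 0.05 at week 4. For the change to week 8, the fitted log2 difference, strong minus weak, was -0.02 (SE 0.31) for miR-301a-3p and -0.02 (SE 0.55) for miR-301b-3p. It was 0.24 (SE 0.23) for miR-130b-3p, 0.21 (SE 0.64) for miR-130b-5p and -0.20 (SE 0.32) for miR-130a-3p.

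In RPM, miR-130b-3p was higher than baseline in 5 of 6 strong and 1 of 6 weak regenerators at both week 1 and week 4. Relative to UniSp2 this split was not there, with 2 of 6 strong and 1 of 6 weak regenerators higher at week 1 and 0 of 6 in both groups at week 4. The fitted log2 difference was 0.35 (SE 0.23) at week 1 and 0.38 (SE 0.23) at week 4 on the TMM scale. At week 8 it was higher than baseline in 6 of 6 strong and 4 of 6 weak regenerators in RPM, and in 0 of 6 of each group relative to UniSp2. miR-301a-3p was higher than baseline at week 8 in 6 of 6 rats of each group in RPM, and in 1 strong and 0 weak regenerators relative to UniSp2, with TMM-scaled fitted log2 fold changes of 1.18 (SE 0.22) in strong and 1.203 (SE 0.22) in weak regenerators.

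The miRNAs whose seed holds nearly the same letters as the family moved in 2 directions on the TMM scale and in 1 relative to UniSp2 at week 8. At week 8 on the TMM scale, the edgeR quasi-likelihood test with Benjamini-Hochberg adjustment gave higher levels of miR-19b-3p (0.87, SE 0.11, FDR 2.2e-09) and miR-19a-3p (0.36, SE 0.12, FDR 0.0177), abundant miRNAs of the miR-17 to miR-92 cluster, which UniSp2 scaling turned to -1.05 and -1.55. miR-148a-3p, the liver-rich member of its family, changed by -1.04 (SE 0.11, FDR 8.8e-12), miR-148b-3p by -0.74 (SE 0.12, FDR 1.4e-06) and miR-152-3p by -2.28 (SE 0.21, FDR 1.2e-13) in the same edgeR test. All 5 passed at week 8, 2 higher and 3 lower, with a median log2 fold change of -0.74 against -0.12 over the 310 miRNAs, and 40.3% of all miRNAs passed. Relative to UniSp2 all 5 were lower, with miR-152-3p at -4.17. At week 1, where 21.6% of all miRNAs passed, miR-19b-3p (0.34, SE 0.11, FDR 0.0271) and miR-152-3p (-0.55, SE 0.20, FDR 0.0445) passed in edgeR, and UniSp2 scaling took miR-19b-3p to 0.05 and ended its call. At week 4 edgeR called miR-152-3p alone (-0.69, SE 0.20, FDR 0.0225).

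Of 8 miRNAs listed for blood vessels and hypoxia, 2 passed at week 1, both higher, 1 at week 4, lower, and 5 at week 8, 4 higher and 1 lower, where 21.6%, 4.19% and 40.3% of all miRNAs passed. The calls at week 1, miR-221-3p (0.34) and miR-92a-3p (0.28), were lost with UniSp2 scaling (0.01 and -0.01). At week 8 the edgeR test called miR-221-3p (0.90, SE 0.13, FDR 6.7e-08), found in endothelial cells, and miR-145-5p (0.90, SE 0.26, FDR 0.0045), a smooth muscle miRNA, higher on the TMM scale, and both were lower with UniSp2 scaling (-1.05 and -1.04). miR-92a-3p (0.39, SE 0.10, FDR 0.0014) and miR-222-3p (0.23, SE 0.09, FDR 0.0379) were also higher with TMM and lower with UniSp2 (-1.52 and -1.67). miR-210-3p, induced by hypoxia in many cells, was lower at week 4 (-0.45, SE 0.13, FDR 0.0211) and at week 8 (-0.45, SE 0.13, FDR 0.0036) in edgeR. The endothelial miR-126a-3p was at 0.18 (SE 0.11) and miR-126a-5p at 0.07 (SE 0.10) at week 8 and neither passed. The list had a median log2 fold change of 0.21 at week 8, and all 8 were lower relative to UniSp2. Between strong and weak regenerators over all time points, 0 of the 8 and 0 of the 5 seed neighbours passed in edgeR.

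Markers of blood cells and organs were read in the same libraries, in which 21.6% of all miRNAs passed at week 1 and 40.3% at week 8. The 5 red blood cell miRNAs together held 199958 to 303258 RPM at baseline and 270785 to 379557 RPM at week 8. At week 8, 3 of the 5 passed, miR-451-5p (1.04, SE 0.19) and miR-144-5p (1.15, SE 0.18) higher with TMM but lower with UniSp2 (-0.93 and -0.79), and miR-144-3p (-0.41, SE 0.17) lower. At week 1, 4 of the 5 passed, all higher, and none of the 5 was called with UniSp2 scaling, where miR-451-5p went from 0.52 to 0.20. The 4 platelet miRNAs listed held 71132 to 93216 RPM at baseline and 56156 to 94342 RPM at week 8, and 1 passed, lower. The 4 leukocyte miRNAs held 13567 to 49843 RPM at baseline and 8114 to 17293 RPM at week 8, with 2 higher and 2 lower on the TMM scale. Of the liver and skeletal muscle miRNAs at week 8, 2 of 2 passed, lower, and 0 of 3 passed. The least abundant marker, miR-206-3p of muscle, had a mean of 7.95 RPM over the 48 samples, and single samples without a read were not counted for the markers. The part of these cell sources in the members' values was not tested.

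Across the 48 samples the members differed in which miRNAs they were most like. The likeness of 2 miRNAs was taken as Pearson's r of log2(RPM + 1) over the 48 samples, among 305 other miRNAs with a mean of at least 10 RPM. These are descriptions without a p, because the 4 samples of a rat are not independent and all samples share the time course, the depth and the RPM scale. miR-301a-3p was most like miR-19b-3p (r = 0.91, rho = 0.88), miR-93-5p (r = 0.90, rho = 0.91) and miR-451-5p (r = 0.85, rho = 0.87), the last a red blood cell miRNA. With the time point means removed, the values of r were 0.76, 0.81 and 0.71.

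miR-130a-3p was most like miR-145-3p (r = 0.83, rho = 0.71), miR-143-3p (r = 0.74, rho = 0.60) and miR-10a-3p (r = 0.74, rho = 0.59). miR-143 and miR-145 are known as smooth muscle miRNAs. Without the 2 samples farthest from the median of the neighbour, r was 0.70, 0.57 and 0.60. miR-130b-3p was most like miR-363-3p (r = 0.83, rho = 0.83), miR-155-5p (r = 0.75, rho = 0.75) and miR-532-5p (r = 0.74, rho = 0.75).

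miR-130b-5p was most like miR-142-5p (r = 0.79, rho = 0.71), miR-21-5p (r = 0.79, rho = 0.71) and miR-30d-5p (r = 0.78, rho = 0.69), 3 miRNAs of the 5p arm, and with time point means removed r was 0.57, 0.60 and 0.55. miR-301b-3p was most like miR-221-3p (r = 0.71, rho = 0.71), miR-30e-3p (r = 0.68, rho = 0.69) and miR-363-3p (r = 0.66, rho = 0.65), with low counts behind each value. In the 12 cases other than those of miR-130a-3p, r lay between 0.66 and 0.90 without the 2 farthest samples.

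**Figure D5:**
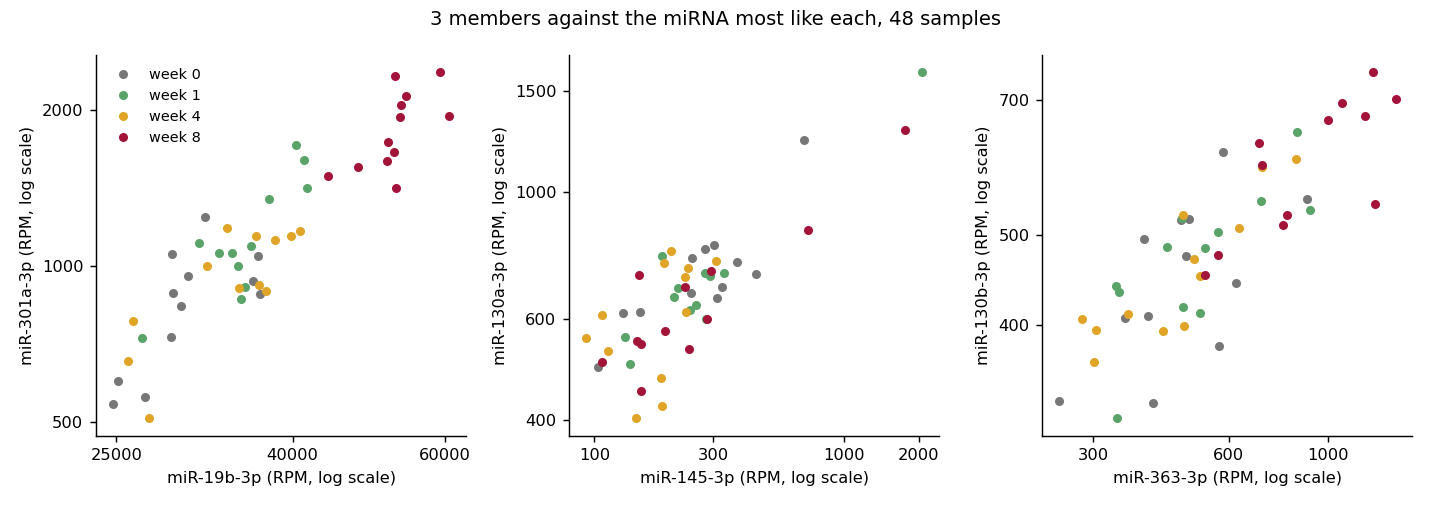
Level (RPM, log scales) of miR-301a-3p, miR-130a-3p and miR-130b-3p in the 48 samples against the miRNA most like each, coloured by week. miR-301a-3p follows miR-19b-3p with the week 8 samples at the top (r = 0.91), while the high end of miR-130a-3p against miR-145-3p (r = 0.83) holds the samples of weak rats 3, 25 and 26.

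Between members, the cluster mates miR-130b-3p and miR-301b-3p had the highest likeness, with r = 0.76 (rho = 0.76) over the 48 samples and 0.69 with time point means removed. miR-301a-3p had r = 0.67 (rho = 0.64) with miR-301b-3p and 0.58 (rho = 0.50) with miR-130b-3p, and 0.43 and 0.30 with time point means removed. miR-130a-3p had r between -0.03 and 0.13 with the others. The arms miR-130b-3p and miR-130b-5p had r = -0.32 (rho = -0.32) over all samples and 0.08 with time point means removed. miR-3590-3p, read from the strand opposite to the miR-130a hairpin, had a median of 18.1 RPM at baseline and 27.9 RPM at week 8.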

How the data were processed

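Small RNA of 48 plasma samples from 12 rats was sequenced after single-adapter ligation. Per the methods and the submitters' processing notes, the authors trimmed reads with cutadapt 3.3, checked them with FastQC 0.11.9 and MultiQC 1.10 and mapped them with Bowtie 1.3.0 and miRDeep2 to the rat genome and the rat miRNAs of miRBase. The methods name a rat genome build, while the notes list GRCh38.p12. The deposited values are raw read counts per mature miRNA and for 3 spike-ins, without normalization by the authors. Mapping of near-identical miRNAs can split reads between them, and ligation preference can set levels.

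Spike-ins were kept out of library sizes. RPM are reads per 1000000 miRNA reads of a library. Counts were fitted with edgeR 4.0.16 in R 4.3.3 (TMM, quasi-likelihood test with its legacy setting, independent filter on mean abundance after the rule of DESeq2, Benjamini-Hochberg adjustment over all miRNAs that passed, two-sided, FDR under 0.05). The time comparisons used all 48 samples with week as the term, strong against weak used week as a covariate, and single time points and interactions used the means of the 8 groups. SE is that of the log2 fold change, from the quasi-likelihood F. Levels by rat used log2(RPM + 1). Python 3.11.15 with pandas 2.3.3, scipy 1.17.1 and matplotlib 3.10.9 made the tables and plots. The steps were tested on simulated data.

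By the animal label, equal numbers mark a single rat, and rats are separate animals. Deviations from the group means had a mean correlation of 0.107 within rats, over 0.1 in 6 of 12 rats, and the rat as a replicate block was an alternative fit. The alternatives were library size, RLE, no filter, filterByExpr, DESeq2 1.42.0, the rat as a block, scaling to UniSp2 and each rat left out. Leaving out the week 8 libraries was added after seeing the data.

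The members and the lists were chosen with earlier results of these data known. By rule, all 5 members, their partner arms, 5 seed neighbours, 8 vascular miRNAs, the marker lists and the 3 miRNAs most like each member are named. One platelet marker of the list, miR-197-3p, is not analysed here. miR-3590-3p, single arm pairs and samples named for a high value were chosen after their values were seen. Sequences are those of RefSeq. Bone volumes, histology and sequencing reads were not analysed here.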

Additional observations from a re-analysis of the deposited data

Results flagged for a closer look

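In 2 of the 40 groups of 6 rats examined (5 members in 8 groups), 1 sample lay far from the others by Dixon's criterion, and chance flags about 1 in 20 groups. Both were miR-130a-3p in weak regenerators. At baseline, weak rat 25 had 1232.38 RPM and the next highest rat 765.33 RPM. At week 1, weak rat 3 had 1618.16 RPM and the next highest 722.37 RPM. The fitted log2 fold change of miR-130a-3p at week 1 against baseline was 0.14, -0.08 without rat 3 and 0.23 without rat 25.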

How the results depend on the processing

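With the week 1 call of miR-301a-3p as the reference (1 member), 2 members passed in DESeq2 and without the week 8 libraries, 0 passed with UniSp2 scaling, and 0 to 2 when each rat was left out (0 without rat 7, 2 without rats 2, 6 or 26). At week 4 no member passed under any alternative. At week 8, 4 members passed under every alternative except UniSp2 scaling, where 5 passed, all lower. With UniSp2, the week 8 values of miR-130b-3p, miR-301a-3p and miR-301b-3p turned to -1.42, -0.76 and -0.60, and the ratio of mean levels at week 8 to baseline became 0.373, 0.590 and 0.667, from 1.32, 2.16 and 2.37. For partner arms, the 1 call at week 4 became 0 with library size, filterByExpr or DESeq2 and 0 to 1 when each rat was left out, and the 0 calls at week 8 became 3 with UniSp2. The cause of these shifts was not tested. With the rat as a replicate block, 1, 0 and 4 members passed at weeks 1, 4 and 8, and this paired fit changed no call. Over all miRNAs, 50, 27 and 250 passed at weeks 1, 4 and 8; UniSp2 scaling gave 61 at week 4 and 499 at week 8 (1 higher, 498 lower), and at week 1 no filter gave 25 and library size 32. No rat block could be fitted for strong against weak, since each rat is in 1 group. No member passed between strong and weak regenerators, or for a difference in change, under any alternative run. Low counts limit miR-301b-3p, miR-130b-5p and the partner arms.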

Other observations

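The hairpin arms moved apart in many miRNAs at week 8. On the TMM scale, the log2 change of the 3p arm minus that of the 5p arm had a median size of 0.86 over the 76 hairpins with both arms at a mean of at least 10 RPM, against 0.26 at week 1 and 0.11 at week 4. Among the marker lists, the leukocyte miR-142-3p was higher at week 8 with TMM (1.16, SE 0.16; -0.77 with UniSp2) and miR-142-5p lower (-1.26, SE 0.14), and the red blood cell miR-144-5p was higher with TMM (1.15, SE 0.18; -0.79 with UniSp2) and miR-144-3p lower (-0.41, SE 0.17). All 4 were called by the edgeR quasi-likelihood test. Within-hairpin differences do not depend on scaling, and the week 8 libraries are also those that stand apart in UniSp2, whose part was not tested.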
